A study of Mus musculus with 4 samples.

Results

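The RNA levels of 35 genes of the lysosome, encoding hydrolases, their cofactors, lysosomal membrane proteins and regulators, were compared between wt and cKO splenic Esam DC. A member had to have a probe set (the array's group of probes for one transcript) that carries its symbol alone and reaches a log2 value of 6.5 on at least 1 of the 4 arrays, and the brightest such probe set stood for the gene. All 35 members met this limit, on 35 of the 18889 probe sets that were tested of the 35399 in the deposited table. The cells were Esam DC, sorted among CD11c and MHC class II positive splenocytes of 6-week-old mice. The wt mice had the label DCRunx3 +/+ and the cKO mice DCRunx3 -/-, made by crossing Runx3fl/fl mice with mice that carry CD11c-Cre, so that the transcription factor Runx3 was to be removed from cells in which the CD11c promoter is active. Whether the wt littermates carried floxed alleles without Cre is not given in the labels. In captions of its flow cytometry the study gives controls as Runx3fl/fl, but it does not say so for these arrays. There were 4 mice with 1 array each: 2 wt and 2 cKO, 1 of each genotype in each of 2 litters. In what follows, values are log2 RMA values, those of a genotype are given for litter 1 and then litter 2, and a difference is the mean of cKO less that of wt, in log2 units, with limma's moderated standard error (SE).

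The question of the comparison was which genes of Esam DC respond to loss of Runx3. Lysosomes are acidic organelles in which hydrolases take apart glycans, lipids and proteins that reach them by endocytosis, phagocytosis or autophagy, and a defect in almost any of these enzymes leads to a storage disease. In DC the same compartment processes antigen and tunes the lifetime of peptides loaded on MHC class II. Many lysosomal genes carry a short element in their promoters, GTCACGTG, that the MiT transcription factors TFEB and TFE3 bind.

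Of the 35 members, 32 matched a RefSeq promoter (GRCm38.p6, 250 bases before to 50 bases after a transcript start, 38 windows in all), and Npc1, Galns and Asah1 did not. GTCACGTG, searched on both strands, was found in 8 of the 32 members (25%), against 419 of the 8014 tested genes with a window (5.23%) and 689 of all 27025 genes (2.55%). One match from each of these 8 members is shown so that the letters around it can be compared, written 5′ to 3′ on the strand of the motif with the 8 motif bases in capitals and 10 bases on either side:
Sgsh: gctccccacgGTCACGTGcacggcaggc
Lamp1: acgtgatgtgGTCACGTGccagtcggca
Naglu: caaccttcagGTCACGTGgcccgaggtc
Mcoln1: ggtcgcgcttGTCACGTGttcagttcag
Glb1: ctgcttctgaGTCACGTGgcctacagag
Gla: tgagatctcgGTCACGTGagcaactctc
Arsa: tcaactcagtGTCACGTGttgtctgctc
Cln3: caggttggggGTCACGTGacagtacccg
They lie at chr11:119355522-119355549 (Sgsh), chr8:13159123-13159150 (Lamp1), chr11:101070009-101070036 (Naglu), chr8:3500436-3500463 (Mcoln1), chr9:114401018-114401045 (Glb1), chrX:134601184-134601211 (Gla), chr15:89477425-89477452 (Arsa) and chr7:126583340-126583367 (Cln3). Sgsh, Gla, Arsa and Cln3 are on the minus strand of the genome and the other 4 genes on the plus strand. The motif reads along the gene in Naglu, Mcoln1, Glb1, Gla and Arsa and against it in Sgsh and Lamp1, whereas in Cln3 the same stretch reads GTCACGTG on both strands. Mcoln1 holds a second copy on its other strand. The nearest match to a transcript start was that of Arsa at position -18, and the farthest that of Gla at -196. The core CACGTG, which every GTCACGTG contains, was present in 9 members (28.1%) against 12.1% of tested genes. The Runx core TGTGGT was present in 5 members (15.6%), namely Lamp1, Hexa, Glb1, Psap and Tfe3, against 15.1% of tested genes. A match describes the letters of a window and is not a bound site.

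Facts of the whole series bear on these values. The array medians lay between 6.58 and 6.62. Runx3 RNA read 11.44 ± 0.10 for wt mice and 11.46 ± 0.01 for cKO mice (SD, n = 2). As the sources do not say if its probes lie in the floxed stretch, this is no check of the genotype labels. By Western blot the study found no Runx3 protein in CD4 DC from mice of the same CD11c-Cre cross. The labels call all mice male, whereas Xist was at 12.75 and 12.78 on both arrays of litter 1 and at 5.15 and 5.19 on both of litter 2. Median absolute differences between arrays of 1 genotype were 0.132 (wt) and 0.0805 (cKO) over named genes. All 12 listed markers of the labelled cells were measured, among them Esam at 10.42 and 10.10 in wt and 10.60 and 10.64 in cKO, so the defining marker of the sort was present on every array.

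Across the 35 members the genotypes lay close together, with 1 exception. Hpse, which encodes heparanase, the endoglycosidase that cuts heparan sulfate chains, was 2.99-fold higher in cKO, and the other 34 members differed by between -0.24 and 0.57. No member passed an adjusted p of 0.05 in limma (background: 0% of tested probe sets). At an unadjusted limma p under 0.05, 6 members were higher in cKO (17.1%, background 4.57%) and 0 were lower (background 4.81%): Hpse, Gusb, Sgsh, Psap, Npc2 and Lamp1. Without cKO 1 this count was 3 (Hpse, Gusb and Npc2), and without cKO 2 it was 2 (Hpse and Npc2). By the thresholds of the study's methods, a fold of at least 1.5 with a p of at most 0.05 in their one-way test, 1 member was called, Hpse (2.86%, background 0.9% higher and 0.514% lower). Its call was known when the list was made. Without Hpse, 0 of 34 members passed these thresholds, and 14.7% were higher at an unadjusted limma p under 0.05. The one-way test alone gave a p under 0.05 for 5 members: Hpse, Psap, Npc2 and Lamp2, higher in cKO, and Manba, lower. The share of all tested probe sets under this one-way p is not given, so that count has no background. Gusb, Sgsh and Lamp1 did not reach it. In 12 members both cKO arrays lay above both wt arrays (34.3%, background 16.4%), in 6 they lay below (17.1%, background 23.7%) and in 17 the genotypes overlapped. Over the 9894 named genes alone these backgrounds were 17.1% and 28.3%, and those of an unadjusted p under 0.05 were 5.37% (higher) and 4.92% (lower). The difference was above 0 for 20 members (57.1%, background 44.9%). The median difference over the members was 0.03, beside -0.02 over all tested probe sets, and the median absolute difference was 0.08, beside 0.112. Members measured on these arrays share mice and libraries, so their count is not a number of independent observations.

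**Figure D1:**
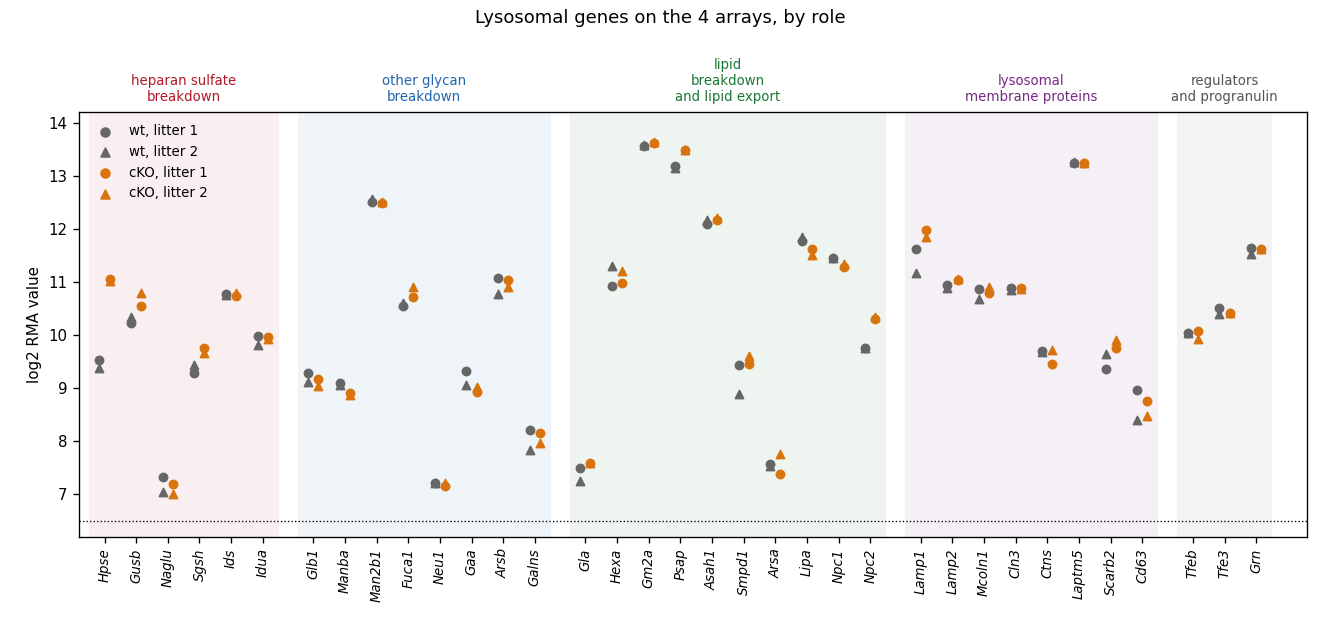
Log2 RMA value (vertical axis) of each of the 35 members on the 4 arrays, grouped by role, with wt in grey, cKO in orange, litter 1 as circles and litter 2 as triangles, and a dotted line at the limit of 6.5. The cKO arrays of Hpse, at 11.05 and 11.02, stand clear of its wt arrays at 9.53 and 9.38, while most other genes have their 4 points close together.

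Enzymes of heparan sulfate breakdown held the member with the widest gap. Hpse was at 9.53 and 9.38 in wt and at 11.05 and 11.02 in cKO. The 2 genotypes were far apart beside the spread between mice of 1 genotype. The difference was 1.58 (SE 0.10, 95% interval 1.31 to 1.84) and ranked 19th by size among the 18889 tested probe sets, but it did not pass the adjustment over all of them (limma, adjusted p = 0.158). When the fit held 1 probe set per named gene, 9894 in all, the adjusted p was 0.0345 and 42 genes were called (0.424%), so this call depends on which probe sets enter the fit. With the litter as a block in that same fit, a setting added after seeing the data, the adjusted p was 0.00268, Npc2 was called as well (limma, adjusted p = 0.0253) and 409 genes were called in all (4.13%). With any 1 array left out, 1 degree of freedom is left. Hpse then met the thresholds of the methods without wt 1 or without wt 2, but not without cKO 1 or without cKO 2. Its difference stayed between 1.502 and 1.65 when any 1 array was left out.

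The promoter of Hpse is shown whole, as that of the member with the clearest difference (RefSeq, GRCm38.p6, chr5:100719667-100719966, minus strand, written along the gene). Capitals would mark CACGTG or TGTGGT, and neither is found in this window:
Hpse: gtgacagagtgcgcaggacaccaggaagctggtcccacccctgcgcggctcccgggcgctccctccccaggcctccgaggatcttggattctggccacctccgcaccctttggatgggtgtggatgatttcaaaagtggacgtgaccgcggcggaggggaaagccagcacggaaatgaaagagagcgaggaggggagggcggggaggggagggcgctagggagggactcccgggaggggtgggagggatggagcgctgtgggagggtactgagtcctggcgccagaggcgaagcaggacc

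The exoenzymes that finish heparan sulfate after heparanase has cut it had smaller differences than Hpse. Gusb, beta-glucuronidase, was at 10.22 and 10.35 in wt and 10.54 and 10.80 in cKO. Sgsh, the sulfamidase that removes N-sulfate groups, was at 9.28 and 9.43 in wt and 9.76 and 9.66 in cKO. In both genes all cKO values lay above all wt values. With Hpse, 3 of the 6 genes were higher without overlap (background 16.4%) and 0 were lower (background 23.7%). Their differences were 0.38 (SE 0.13) and 0.35 (SE 0.10), with limma adjusted p-values of 0.493 and 0.457. Naglu, the alpha-N-acetylglucosaminidase, was at 7.32 and 7.04 in wt and 7.20 and 6.995 in cKO. The X-linked Ids, the iduronate-2-sulfatase, was at 10.78 and 10.76 in wt and 10.73 and 10.79 in cKO (-0.01, SE 0.08), and Idua, the alpha-L-iduronidase, differed by 0.05. The values of Naglu, Ids and Idua overlapped between genotypes. The median difference over the 6 genes was 0.20, and 0.05 without Hpse. Averaged over the 5 genes other than Hpse, the arrays stood at 9.51 and 9.48 in wt and at 9.64 and 9.63 in cKO. The match to GTCACGTG was in Sgsh and Naglu, of which the first was higher in cKO and the second was not, and in neither Hpse nor Gusb.

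Hydrolases of other glycans were close to even between genotypes. Fuca1, the alpha-L-fucosidase, was at 10.54 and 10.60 in wt and 10.72 and 10.91 in cKO, a difference of 0.25 (SE 0.10, limma adjusted p = 0.589). Manba, the beta-mannosidase that takes apart N-glycan cores, was at 9.10 and 9.05 in wt and 8.92 and 8.87 in cKO. Gaa, the acid alpha-glucosidase that degrades glycogen, was at 9.32 and 9.06 in wt and 8.92 and 9.02 in cKO. Fuca1 was higher in cKO and Manba and Gaa lower, in each case with no overlap. Over the 8 genes, 1 was higher (background 16.4%) and 3 were lower (background 23.7%) without overlap. The differences were -0.19 (SE 0.08) for Manba and -0.22 (SE 0.13) for Gaa, with limma adjusted p-values of 0.609 and 0.707. That of Gaa was -0.08 without wt 1 and -0.35 without wt 2. The others differed by 0.09 or less in either direction: Glb1, the beta-galactosidase (-0.09), Man2b1, the alpha-mannosidase (-0.03), Neu1, the sialidase (-0.03, with no overlap), and the sulfatases Arsb (0.05) and Galns (0.03). A second probe set of Arsb differed by 0.08. The median over the 8 genes was -0.03, and none had an unadjusted limma p under 0.05. In the methods' one-way test Manba had an unadjusted p of 0.032.

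Among genes of lipid breakdown and export, Npc2 differed most. Npc2 encodes the soluble protein that takes cholesterol from lysosomal lumen membranes and passes it to the membrane transporter NPC1. It was at 9.76 on both wt arrays and at 10.30 and 10.35 in cKO. The spread within either genotype was small beside the gap, and the difference was 0.57 (SE 0.08, 95% interval 0.34 to 0.79), a 1.48-fold higher level just under the 1.5-fold threshold (limma, adjusted p = 0.223). Npc1 was at 11.45 on both wt arrays and at 11.28 and 11.35 in cKO, a difference of -0.14 (SE 0.08, limma adjusted p = 0.722). Lipa, the acid lipase that frees cholesterol from its esters, was at 11.77 and 11.85 in wt and 11.62 and 11.52 in cKO, a difference of -0.24 (SE 0.09, limma adjusted p = 0.546). Of these 3 genes that handle cholesterol in the lysosome, Npc2 was higher and Npc1 and Lipa lower in cKO. None overlapped between genotypes, as was so for 16.4% (higher) and 23.7% (lower) of all tested probe sets, and none passed the adjusted test.

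Among the sphingolipid genes, Psap, the precursor of the saposins that present sphingolipids to their hydrolases, was at 13.18 and 13.15 in wt and 13.48 and 13.49 in cKO. The difference of 0.32 (SE 0.08) exceeded the spread within either genotype and did not pass the adjusted test (limma, adjusted p = 0.406). Gm2a, the activator that lifts GM2 ganglioside out of the membrane, and Hexa, the hexosaminidase subunit that acts on it, differed by 0.06 and -0.01. Smpd1, the acid sphingomyelinase, was at 9.44 and 8.89 in wt and 9.46 and 9.60 in cKO. Its wt arrays lay far apart (SD 0.39, n = 2), and the difference of 0.37 rested on litter 2 (0.72) and not on litter 1 (0.02). Gla, the alpha-galactosidase that degrades globotriaosylceramide and is X-linked, was at 7.497 and 7.25 in wt and 7.58 on both cKO arrays (0.21, SE 0.12, limma adjusted p = 0.694). Asah1, the acid ceramidase, differed by 0.05 and Arsa, the arylsulfatase that removes sulfate from sulfatide, by 0.02. In 5 of the 10 genes the cKO arrays lay above the wt arrays (background 16.4%), in 2 below (background 23.7%), and the median was 0.05.

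**Figure D2:**
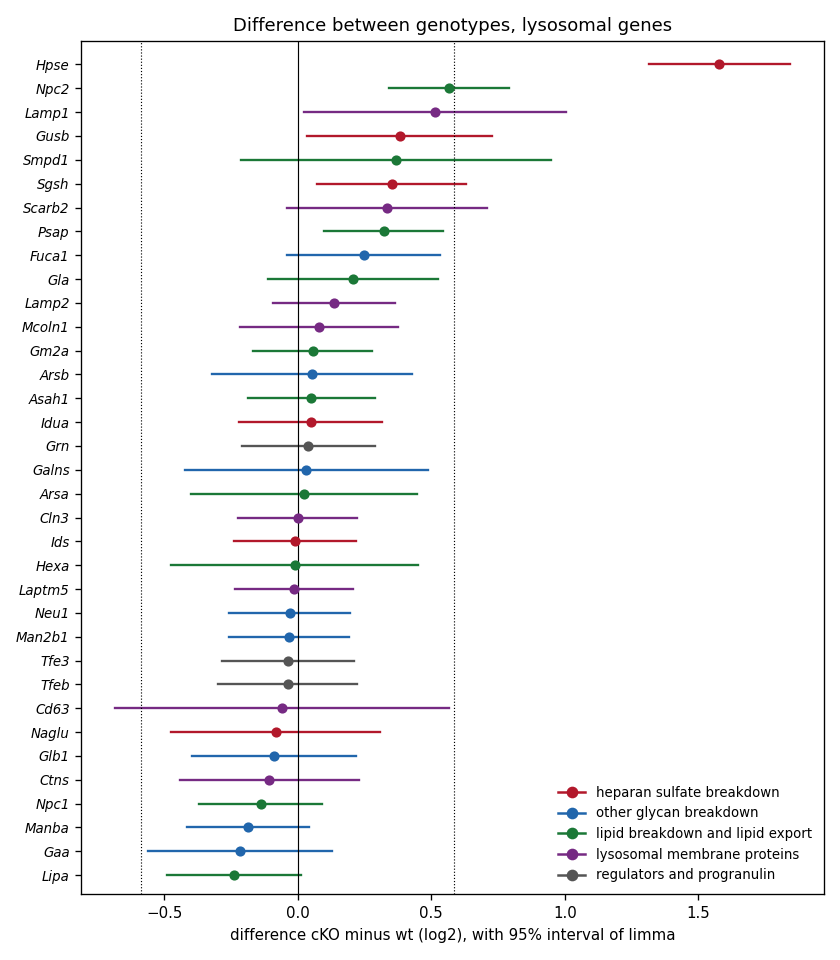
Difference cKO minus wt (horizontal axis, log2) of each member with limma's 95% interval, coloured by role, with dotted lines at a 1.5-fold change in either direction. The interval of Hpse, 1.31 to 1.84, lies wholly past the line, and those of 5 further genes (Npc2, Lamp1, Gusb, Sgsh and Psap) exclude 0 without doing so.

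Of the membrane proteins, Lamp1, one of the most abundant glycoproteins of the lysosomal membrane, was at 11.62 and 11.17 in wt and 11.98 and 11.84 in cKO. Both cKO arrays were above both wt arrays, but the wt arrays were themselves apart (SD 0.32, n = 2), and the difference was 0.51 (SE 0.18, 95% interval 0.02 to 1.01, limma adjusted p = 0.517). It was 0.29 without wt 2 and 0.74 without wt 1. Its relative Lamp2 was at 10.95 and 10.89 in wt and 11.04 and 11.06 in cKO, a difference of 0.13 (SE 0.08). Scarb2, the receptor that carries glucocerebrosidase to the lysosome, was at 9.36 and 9.64 in wt and 9.76 and 9.91 in cKO, a difference of 0.33 (SE 0.14, limma adjusted p = 0.575). In all 3 genes the genotypes did not overlap. Of the 8 genes, 1 was lower without overlap (background 23.7%), and these 3 were higher (background 16.4%). The others differed little, namely Mcoln1, the calcium channel TRPML1 (0.08), Cln3, a membrane protein lost in a childhood neuronal ceroid lipofuscinosis (0.00), Ctns, the cystine exporter (-0.11), Laptm5, a protein of hematopoietic cells (-0.01), and the tetraspanin Cd63 (-0.06). Laptm5 was nominally separated, at 13.25 and 13.26 in wt and 13.24 on both cKO arrays. The median over the 8 genes was 0.04.

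The promoter of Lamp1 is shown because it held more copies of CACGTG than that of any other member, and the window is also the one in which GTCACGTG and the Runx core overlap (RefSeq, GRCm38.p6, chr8:13158911-13159210, plus strand, written along the gene). Capitals mark CACGTG, GTCACGTG and TGTGGT on either strand:
Lamp1: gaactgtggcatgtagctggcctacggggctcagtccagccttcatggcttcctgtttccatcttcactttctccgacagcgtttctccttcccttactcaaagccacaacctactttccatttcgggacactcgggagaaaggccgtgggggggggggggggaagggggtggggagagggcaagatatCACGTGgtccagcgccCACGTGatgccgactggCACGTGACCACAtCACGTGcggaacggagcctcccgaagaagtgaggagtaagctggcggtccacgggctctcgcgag
The 4 copies of CACGTG begin at positions -61, -45, -28 and -15 from the transcript start. The TGTGGT match is on the opposite strand and begins at -22, so that it shares bases with the GTCACGTG match that begins at -28. Of the 6 members with an unadjusted p under 0.05, 2 (Lamp1 and Sgsh, 33.3%) held GTCACGTG, as did 6 of the 26 other members with a window (23.1%). With 6 genes these shares are given as counts and no difference between them was tested.

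The regulators overlapped between genotypes. Tfeb, the MiT factor best known as an activator of lysosomal genes, was at 10.03 and 10.04 in wt and 10.07 and 9.92 in cKO. Its X-linked relative Tfe3 was at 10.51 and 10.39 in wt and 10.41 and 10.42 in cKO. Grn, the gene of progranulin, a secreted protein that lysosomes cut into granulins, was at 11.65 and 11.53 in wt and at 11.63 on both cKO arrays. No genotype stood apart in any of the 3 genes. The differences were -0.04 (95% interval -0.30 to 0.22), -0.03 (-0.28 to 0.21) and 0.04 (-0.21 to 0.29), and the limma adjusted p-values were 0.947, 0.949 and 0.940. The activity of TFEB and TFE3 is known to depend on their place in the cell, which RNA levels do not show.

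**Figure D3:**
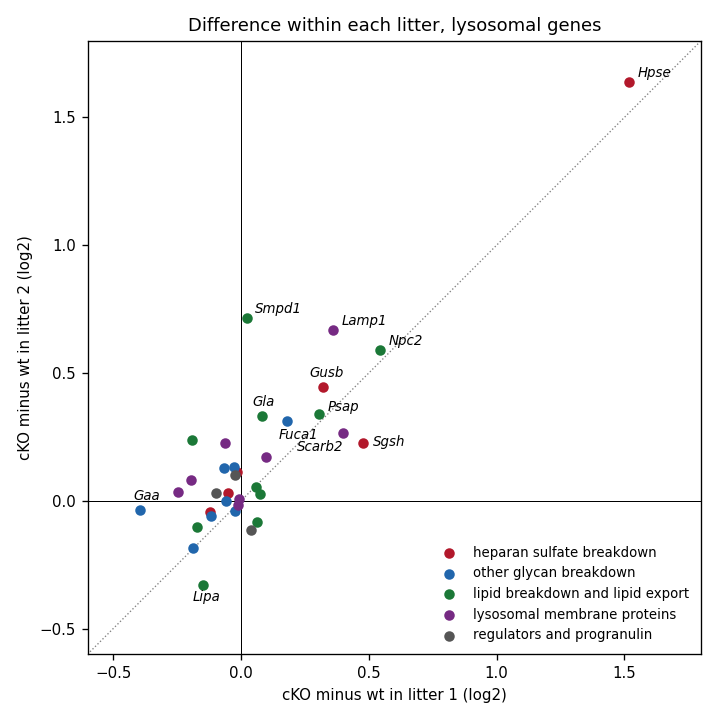
Difference cKO minus wt within litter 1 (horizontal axis) and litter 2 (vertical axis), log2, 1 point per member and coloured by role, where the dotted line marks equal differences. Hpse stands alone at 1.52 and 1.64, Npc2 (0.54 and 0.59) lies near the line and Smpd1 (0.02 and 0.72) far from it.

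Each litter held 1 mouse of each genotype and so gave its own difference. Hpse was higher in cKO by 1.52 in litter 1 and by 1.64 in litter 2, and Npc2 by 0.54 and 0.59. Lamp1 differed by 0.36 and 0.67, Gusb by 0.32 and 0.45, Sgsh by 0.48 and 0.23 and Psap by 0.30 and 0.34. All 6 of these genes were higher in cKO in both litters. In each of them both cKO arrays lay above both wt arrays, from which this follows, so it adds no support. The sign was the same in both litters for 22 of the 35 members and opposite for 13 (background 42.3%), and no member was opposite by 0.25 or more in each litter (background 3.97%). With the litter as a replicate block in the fit, 7 members were higher at an unadjusted p under 0.05 (background 5.33%), the added one being Scarb2, and 0 passed the adjusted test. Between litters, 3 members had an unadjusted limma p under 0.05 (8.57%, background 5.45%), and none passed adjustment (background 0.0265%). These were Cd63, at 8.96 and 8.76 in litter 1 and 8.40 and 8.48 in litter 2 (wt first), Hexa, which was higher in litter 2 by 0.30, and Galns, which was lower by 0.28. The litters also differ in Xist and Kdm5d, so a difference between litters cannot be told apart from one between sexes. The X-linked members Gla, Ids, Lamp2 and Tfe3 differed between litters by -0.12, 0.02, -0.02 and -0.05, which the test did not tell from 0.

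Lists of other genes of the lysosome and of related functions, some of them outside the organelle, were made up by function and read in the same fit. Of 17 further lipid hydrolases and cofactors, 13 were measured. In cKO, 7 of them were higher without overlap (background 16.4%), 6 were higher at an unadjusted p under 0.05 (background 4.57%) and 4 were higher by the study's thresholds (background 0.9%). Their median difference was 0.43. Galc, the galactosylceramidase, was at 7.08 and 7.01 in wt and 8.02 and 8.46 in cKO, a difference of 1.19 (SE 0.17, limma adjusted p = 0.223). Naaa, the N-acylethanolamine amidase, was at 12.12 and 11.98 in wt and 12.79 and 12.86 in cKO (0.77, SE 0.10, limma adjusted p = 0.209), and Ppt2, a thioesterase of lipid-modified substrates, at 9.14 and 8.74 against 9.85 and 9.92 (0.94, SE 0.16, limma adjusted p = 0.268). These genes are not on the member list, and Naaa also belongs to the marker list of cDC1 given later. The fourth past the study's thresholds was Ppt1, the palmitoyl-protein thioesterase, with a difference of 0.68.

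The heparan sulfate genes outside the lysosome did not show the size of Hpse. Of 31 genes of heparan sulfate synthesis, 21 were measured, with 6 higher (background 16.4%) and 7 lower (background 23.7%) without overlap and a median of -0.01. Xylt1, the xylosyltransferase that starts the chain, was at 7.05 and 7.17 in wt and 7.63 and 7.74 in cKO (0.58, SE 0.10, limma adjusted p = 0.266). Glce, the epimerase that makes iduronic acid, differed by 0.23 and B3gat3, which completes the linker, by -0.21. Of 16 genes for proteoglycan cores and serglycin, 7 were measured, 4 of them higher and 0 lower without overlap, with a median of 0.12. Sdc3, a syndecan, was at 10.05 and 9.71 in wt and 10.48 and 10.25 in cKO (0.49, SE 0.16, limma adjusted p = 0.492), and Sdc4 and Cd44 differed by 0.40 and 0.13. None of these genes passed the study's thresholds.

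The remaining lists had medians close to 0, and their counts without overlap are to be read against the same background, 16.4% higher and 23.7% lower. Of 22 further genes of glycan breakdown, 11 were measured. They include hydrolases and genes that encode none, such as Hgsnat, Sumf1, Sumf2 and Tmem106b. Of the 11, 2 were higher and 1 lower without overlap, 0 had an unadjusted p under 0.05, and the median was 0.04. The genes with the smallest p, Ctbs, Nagpa and Hgsnat, differed by 0.27, -0.16 and 0.14. Hgsnat, an acetyltransferase, also acts in heparan sulfate breakdown but was not in that role group. Of 35 further lysosomal membrane proteins, 27 were measured, with 10 higher and 5 lower without overlap and a median of 0.06. In this list Laptm4b (0.95), the tetraspanin Cd81 (0.93) and the channel gene Tpcn1 (1.01) passed the study's thresholds (background 0.9%). Of 19 vacuolar ATPase subunits, which acidify the lysosome, 16 were measured, with 5 higher and 3 lower without overlap and a median of 0.04. Atp6v0a1 differed by 0.25, Tcirg1 by -0.26 and Atp6v1h by -0.16. Of 17 genes of mannose 6-phosphate sorting, which brings hydrolases to the lysosome, 16 were measured, with 1 higher and 5 lower without overlap and a median of -0.02. The receptor gene Igf2r had wt values of 6.35 and 6.25, both below 6.5, and cKO values of 7.06 and 7.12 that were above it, so that the size of its difference is not given, while Gnptg differed by -0.25 and Gga2 by -0.11. Of 20 genes of MiT factors and lysosomal mTORC1, 19 were measured, with 3 higher and 4 lower without overlap and a median of 0.02, Fnip2 (0.88) being the 1 past the study's thresholds beside Tfec (0.25) and Rraga (-0.22). No gene of the 8 lists passed the adjusted test, and none that was lower in cKO had an unadjusted p under 0.05.

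**Figure D4:**
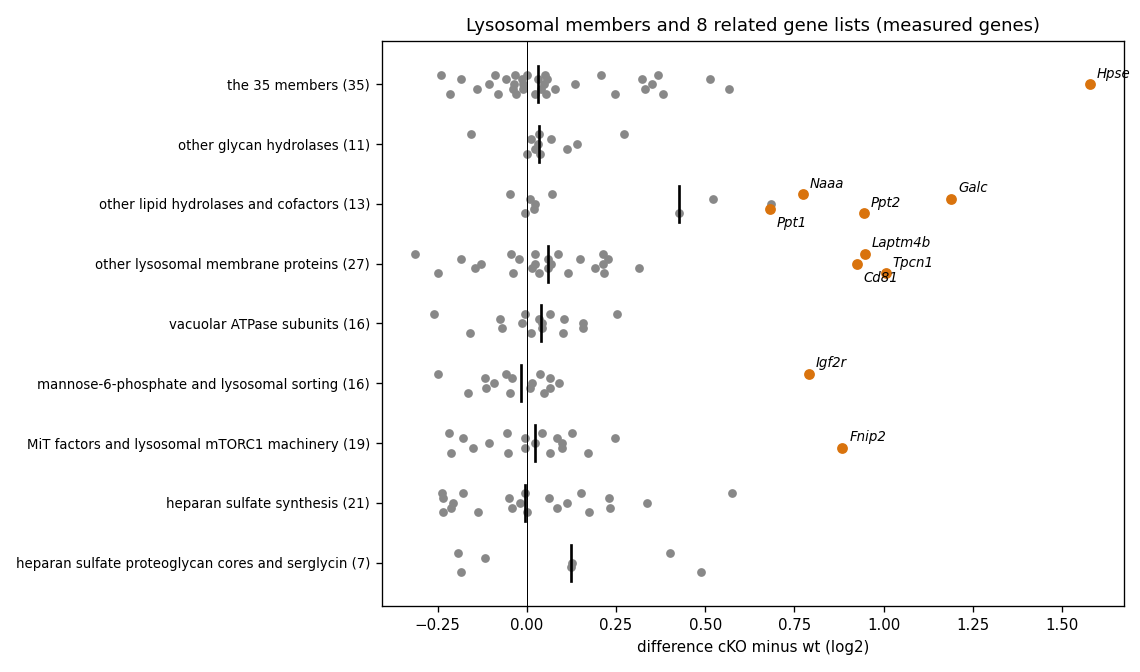
Difference cKO minus wt (horizontal axis, log2) of the 35 members and of the measured genes in 8 related lists (vertical axis, number measured in brackets); orange and named genes passed the study's thresholds, black bars are medians, and the vertical scatter within a row only separates points. Further lipid hydrolases have the highest median, 0.43, against 0.03 for the members, and 4 of them are orange, while Igf2r is drawn at its measured difference although its wt arrays lie below 6.5.

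Most measured genes on marker lists of other spleen cells moved in the same direction as the higher members. Without overlap, 16.4% of all tested probe sets were higher in cKO and 23.7% lower, beside which the following counts stand. Of 13 measured red pulp macrophage markers, 10 were higher in cKO without overlap, and their mean level was 9.37 and 9.95 in wt and 10.31 and 10.47 in cKO. Of 7 measured monocyte markers, 7 were higher, with means of 8.79 and 8.78 in wt and 9.60 and 9.70 in cKO. Of 11 measured markers of cDC1, the CD8-type DC, 8 were higher and 2 lower, with means of 9.73 and 9.57 in wt and 10.41 on both cKO arrays. All 3 lists stood higher on both cKO arrays than on both wt arrays. Some listed genes are not limited to these cells. The study reports Cx3cr1 (monocyte list), Irf8 (cDC1 list) and Flt3 (listed here for Esam DC) as genes of DC with low Esam. It found these genes raised in Esam-high DC that lack Runx3, with RT-qPCR or flow cytometry beside its arrays. Its arrays of Esam-high DC are those used here. Spic, on the macrophage list, is reported there as raised in CD4 DC that lack Runx3. Plasmacytoid DC markers (5 of 6 higher) went from 7.49 and 7.56 to 8.23 and 8.37, and B cell markers (3 of 4 higher) from 8.54 and 8.20 to 9.02 and 8.87. Below the limit of 6.5 on every array were the macrophage markers Marco, Trem2 and Fcgr1, the B cell factors Pax5 and Ebf1, all T cell markers with a probe set of their own (Cd3e the brightest at 6.14), and all neutrophil markers other than Mmp9. The lysosomal membrane protein Cd68, also a macrophage marker, was at 12.43 and 12.27 in wt and 12.36 and 12.39 in cKO, so it overlapped. Of the labelled Esam DC markers, 7 of 12 were higher and 3 lower without overlap, with means of 11.62 and 11.60 in wt and 11.69 and 11.72 in cKO. Many members are also expressed in macrophages and monocytes, and the part of these cells in the levels of Hpse, Npc2, Psap, Gusb, Sgsh and Lamp1 was not tested. In sorted bulk RNA, a change in the number of cells of a type and a change in RNA per cell cannot be told apart.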

How the data were processed

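RNA of sorted splenic Esam DC from 4 mice was hybridised to 1 Affymetrix array each. The authors deposited log2 values, made in Partek by RMA (robust multichip average) and corrected for GC, so that background correction and normalization had been done. The submitters' processing notes also name mm9, with no versions. The study's methods name an exon 1.0 ST array, whereas the platform annotation given is gene-level. The number of arrays limits the precision. No column was left unmapped, and no per-probe background value was used here.

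Names of probe sets came from the annotation of the platform (21789 with 1 symbol, 1621 with several, not named, and 11989 not listed). Probe sets reaching log2 6.5 on at least 1 array, the limit of the study's methods, were tested (18889) with limma 3.58.1 in R 4.3.3 (lmFit and eBayes, two-sided, Benjamini-Hochberg over all of them, threshold 0.05), with 2 residual degrees of freedom joined to a prior of 2.2. Beside it stood the methods' own thresholds, a 1.5-fold change with p at most 0.05 in their one-way test. The mice are separate animals. The p-values of limma rest on the spread between 2 mice per genotype, joined to the prior. Those 2 mice came from different litters, which also differ in Xist, so the spread holds litter as well as mouse. Litter numbers in the labels pair the samples (deviations of same-litter mice correlated at r = 0.27), and the litter served as a block in an alternative. Other alternatives changed the normalization, the low-value filter, the choice of probe sets, the variance model, the test and the arrays included. The procedure was tested on simulated data.

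Members, role groups and lists were chosen with earlier results of these data known, among them the call of Hpse. All members were named, with values per array for those of unadjusted p under 0.05 or past the study's thresholds, up to 3 per role group by smallest p, and X-linked ones, plus up to 3 genes of each related list. Values given beyond this rule (per array for Naglu, Npc1, Smpd1, Laptm5, Cd63, Esam and Cd68, and the difference of Ppt1) were chosen after their values were seen. Promoter windows and their coordinates are from RefSeq (GRCm38.p6) and were matched by symbol. They are not of the build in the processing notes and were not joined to it. Protein features were not analysed here.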

Additional observations from a re-analysis of the deposited data

How the results depend on the processing

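The design has 2 mice per genotype, and 14 alternatives were run on 43 values (the 35 member differences, 5 medians of role groups and 3 counts of called members). Of 430 values from alternatives that kept all 4 arrays, 423 kept direction and side of the threshold. The genes behind a count could still change: in the methods' one-way test 5 members had an unadjusted p under 0.05, with Manba and Lamp2 but not Gusb, Sgsh and Lamp1. No background share is given for that one-way count. With 1 probe set per gene in the fit, 1 member passed the adjusted test instead of 0, Hpse, at an unchanged difference of 1.58 (limma adjusted p = 0.0345). Ids turned to 0.0087 under quantile normalization and Cln3 to -0.013 under median centring, both close to 0 in every setting. The litter as a replicate block changed no call: 0 members passed the adjusted test, 1 the study's thresholds, and Hpse stayed at 1.58 (limma adjusted p = 0.252). With both together, a setting chosen after seeing the data, 2 members passed, Hpse at 1.58 (limma adjusted p = 0.00268) and Npc2 at 0.57 (limma adjusted p = 0.0253), and 409 genes in all, against 42 with 1 probe set per gene and 0 probe sets in the fit reported.

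Without 1 array at a time, Hpse differed by 1.502 to 1.65 (limma adjusted p 0.192 to 0.877) and 0 members passed the adjusted test. The count at an unadjusted p under 0.05 was 2 to 6 and that past the study's thresholds 0 to 1; the 1 gene was Npc2 in place of Hpse without cKO 1, and there was none without cKO 2. Medians were 0.16 to 0.20 for heparan sulfate breakdown, -0.13 to -0.012 for other glycans, 0.038 to 0.16 for lipids, -0.0091 to 0.17 for membrane proteins and -0.035 to 0.036 for regulators. The sign held under all settings for 20 members and turned without 1 array for 15: Naglu (-0.22 to 0.058), Ids (-0.040 to 0.020), Idua (-0.030 to 0.13), Glb1 (-0.18 to 0.0048), Arsb (-0.094 to 0.20), Galns (-0.16 to 0.22), Hexa (-0.20 to 0.17), Arsa (-0.17 to 0.21), Mcoln1 (-0.011 to 0.17), Cln3 (-0.017 to 0.017), Ctns (-0.24 to 0.029), Cd63 (-0.34 to 0.22), Tfeb (-0.11 to 0.036), Tfe3 (-0.094 to 0.024) and Grn (-0.022 to 0.10). Of the 20, these moved by over 1.5 times without 1 array: Lamp1 (0.29 to 0.74), Scarb2 (0.19 to 0.48), Smpd1 (0.09 to 0.65), Gla (0.08 to 0.33), Fuca1 (0.15 to 0.34), Gaa (-0.35 to -0.08), Asah1 (0.0078 to 0.09), Man2b1 (-0.05 to -0.010), Neu1 (-0.06 to -0.0035) and Laptm5 (-0.020 to -0.0072). The cause of these turns and moves was not tested.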
